A study of Mus musculus with 12 samples.

Results

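The 31 genes described here encode amino acid transporters, out of 55471 genes counted in 12 RNA-seq libraries of mouse melanoma cell lines. They were chosen by transporter family with levels in these same libraries already known, given as CPM (counts per 1000000 gene counts of a library), and Slc6a15 was singled out with its levels across the lines in view. Its pattern is therefore given as a description, with no test. All 31 were found in the count files, and 24 of them passed the filter on low counts.

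The libraries come from 4 untreated lines with 3 libraries each: MeVa2.1.dOVA, MeVa2.1, MeVa2.2.dOVA and MeVa2.2. Per the labels, every line is wild type, of murine melanoma, and taken from a subcutaneous tumour of the skin. The labels do not spell out dOVA, so the lines that carry it are set here against the lines whose names they extend, and the series title presents MeVa2.1.dOVA as a line that resists immune attack. Nothing states whether a line is 1 clone, or whether its libraries were separate cultures, and a p-value here speaks for the spread among these libraries, which could be technical alone.

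Amino acids cross membranes through carrier families that differ in substrate and in driving force. Sodium-coupled carriers such as those of system A concentrate small neutral amino acids, exchangers such as the leucine carrier then trade them for others, and uniporters let amino acids flow down their gradients. Tumour cells are known to rely on glutamine and leucine uptake, and leucine and arginine sensing at the lysosome drives the growth kinase mTORC1.

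Gene counts per library ranged from 16181816 to 35627069. Over the 13985 tested genes, log2(CPM + 1) of replicate 2 of MeVa2.2 correlated at 0.943 and 0.967 with the other libraries of its line and at 0.979 with replicate 1 of MeVa2.2.dOVA. Replicate 2 of MeVa2.1.dOVA correlated at 0.966 and 0.967 with its own line, whose other pair reached 0.988. Replicate 3 of MeVa2.1 correlated at 0.974 and 0.976 with its own line and at 0.985 with replicate 3 of MeVa2.1.dOVA, and replicate 3 of MeVa2.2.dOVA at 0.954 and 0.965 with its own line. Of 14 melanocyte markers, 8 passed the filter, and all 14 summed to 40.1 to 88.0 CPM. The largest were Pax3 at 21.6 to 39.1 CPM and Mitf at 8.84 to 24.1 CPM, while Sox10 did not exceed 1.12 CPM. Tyrp1, Dct and Mlana were at 0 in 7 libraries each and had reads in replicate 1 of every line and replicate 3 of MeVa2.2. The 10 fibroblast markers summed to 1622 to 6416 CPM. The 19 immune cell markers summed to 1.81 to 17.8 CPM in 11 libraries and to 55.6 CPM in replicate 1 of MeVa2.1, where Laptm5 alone held 44.2 CPM. Cd3e, Cd4, Cd8a, Ms4a1 and Nkg7 were at 0 in all 12 libraries, and Ptprc did not exceed 0.237 CPM.

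Transcript levels of the 31 genes spanned several orders of magnitude, as the heat map of all members by library shows. Per kilobase of exon, the mean over all libraries was highest for Slc7a5, the light chain of the leucine exchanger, at 192 CPM per kilobase, and for Slc3a2, its heavy chain, at 166 CPM per kilobase. Slc38a2 at 59.5 and Slc1a5 at 59.0 CPM per kilobase came next, followed by Slc6a6, Slc7a1, Slc1a4 and Slc6a9 at 46.3 to 33.2 CPM per kilobase. The ranges of Slc7a5 (83.6 to 286) and Slc3a2 (102 to 211) overlapped, as did those of Slc38a2 (33.2 to 99.5) and Slc1a5 (42.1 to 83.3), so the order within these pairs is not beyond the spread of the libraries. Altogether 11 members averaged at least 10 CPM per kilobase and 15 averaged under 1.

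**Figure D1:**
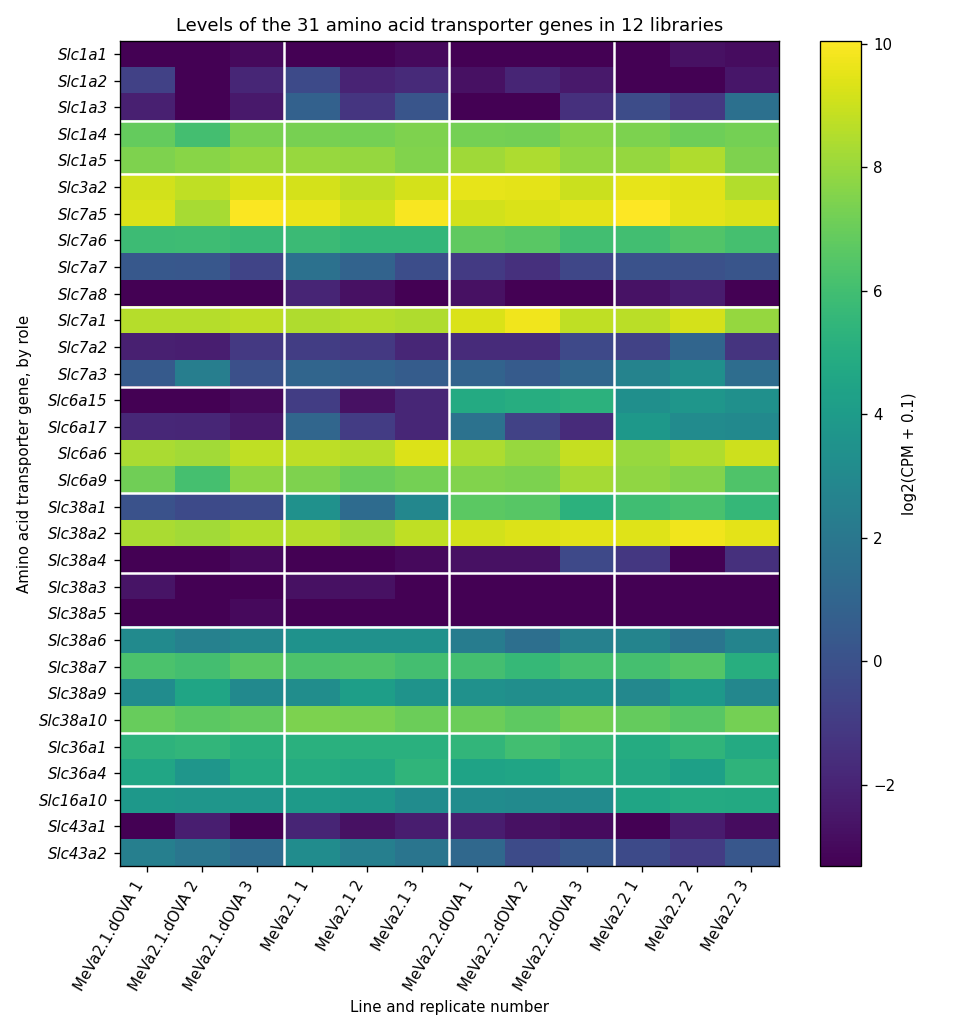
Level of each of the 31 transporter genes (rows, grouped by role between white lines) in each of the 12 libraries (columns, by line and replicate number), coloured by log2(CPM + 0.1). Slc7a5, Slc3a2 and Slc38a2 are bright in all libraries, Slc38a1 and Slc6a15 are brightest in the columns of MeVa2.2.dOVA and MeVa2.2, and Slc1a1, Slc38a3 and Slc38a5 are dark throughout.

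Of the level per kilobase summed over the 31 genes, the heteromeric carriers (Slc3a2 with the light chains Slc7a5, Slc7a6, Slc7a7 and Slc7a8) held 46.8% to 59.8% in each library. Slc1a4 and Slc1a5 held 11.7% to 17.1%. System A (Slc38a1, Slc38a2 and Slc38a4) held 5.24% to 7.40% in MeVa2.1.dOVA and 5.91% to 6.62% in MeVa2.1, against 9.32% to 10.8% in MeVa2.2.dOVA and 9.29% to 13.9% in MeVa2.2. The system A shares of the MeVa2.1 pair of lines thus lay below those of the MeVa2.2 pair in every library.

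**Figure D2:**
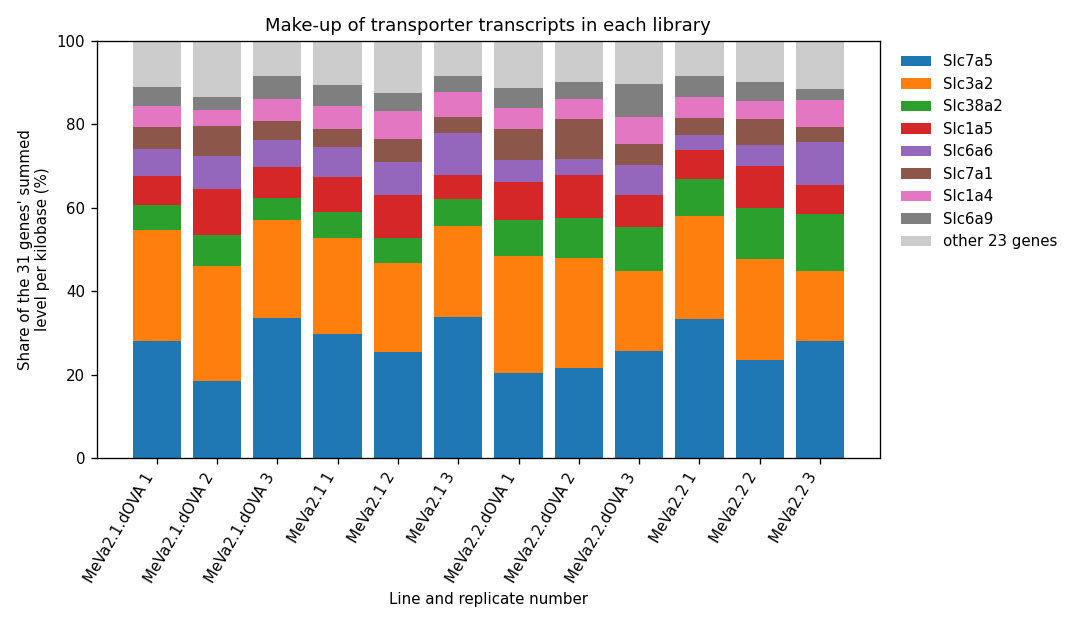
Stacked bars of the share (%) that each of the 8 most abundant transporters, and the other 23 together, held of the 31 genes' summed CPM per kilobase in each library. Slc7a5 with Slc3a2 makes up the lower part of every bar, and the Slc38a2 segment runs from 5.23% to 7.39% in the libraries of MeVa2.1.dOVA and MeVa2.1, below the 8.54% to 13.5% of MeVa2.2.dOVA and MeVa2.2.

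Each line was compared with its counterpart in a single edgeR quasi-likelihood fit over all genes, in which a gene was called at a Benjamini-Hochberg adjusted p of 0.05 or less. In MeVa2.1.dOVA against MeVa2.1, 1 of the 24 tested members was called, Slc38a1, beside 0.486% of all 13985 tested genes. In MeVa2.2.dOVA against MeVa2.2 it was also 1, Slc16a10, beside 1.99% of all genes. In MeVa2.1 against MeVa2.2 the 5 called were Slc38a1, Slc38a2, Slc16a10, Slc43a2 and Slc6a15, and without Slc6a15 that is 17.4% of the other 23 tested members beside 4.48% of all genes. In MeVa2.1.dOVA against MeVa2.2.dOVA the 3 called were Slc38a1, Slc38a2 and Slc6a15, and without Slc6a15 the share was 8.70%, below the 11.3% of all genes. Slc6a15 is among these counts because the fit covers every gene, and nothing is read from it. The comparisons share lines, so the calls of one are not independent of those of another.

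The difference between the dOVA difference of MeVa2.1 and that of MeVa2.2 was called for 0 members by edgeR, beside 0.0858% of all genes. Leaving Slc6a15 aside, 3 of 23 members reached an unadjusted p under 0.05 in that comparison (Slc16a10, Slc38a1 and Slc7a3), beside 8.49% of all genes. DESeq2 called 2 of these 23 (Slc16a10 and Slc38a1), or 8.70%, beside 1.94% of all genes. The fit was repeated over all 12 libraries with the replicate number as a block. It is given for the 3 of 4 line comparisons in which deviations of all same-numbered libraries correlated above 0.1. In MeVa2.2.dOVA against MeVa2.2, replicates 2 and 3 also did (0.640 and 0.521), but replicate 1 did not (0.0815). The block fit called 2 members in MeVa2.1.dOVA against MeVa2.1 beside 2.6% of all genes. Leaving Slc6a15 aside, the block gave 6 members, 26.1% of the 23, in MeVa2.1 against MeVa2.2 beside 9.51%, and 5, or 21.7%, in MeVa2.1.dOVA against MeVa2.2.dOVA, a share near the 22% of all genes. Those it added were Slc1a3 in the first, Slc6a17 and Slc38a6 in the second, and Slc6a17, Slc7a6 and Slc43a2 in the third. In the third, the replicate 1 libraries correlated at 0.105, just over the limit.

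The median log2 fold change over the 23 tested members other than Slc6a15 was -0.25 in MeVa2.1.dOVA against MeVa2.1 and -0.07 in MeVa2.2.dOVA against MeVa2.2, where all tested genes had medians of 0.00 and -0.02. It was -0.11 between the MeVa2.1 and MeVa2.2 lines and -0.26 between the dOVA lines, beside -0.02 and 0.01 over all tested genes. Among these 23, 15 were negative in the first comparison and 12, 13 and 14 in the others. Libraries of the 2 lines did not overlap for 21.0%, 17.3%, 23.5% and 30.0% of all tested genes, in the same order of comparisons. Among the 24 tested members, Slc6a15 included, these shares were 20.8%, 29.2%, 37.5% and 41.7%. Separations of single members given below are to be read beside the shares of all genes. The 7 members with too few counts to be tested were Slc1a1, Slc1a2, Slc7a8, Slc38a3, Slc38a4, Slc38a5 and Slc43a1.

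**Figure D3:**
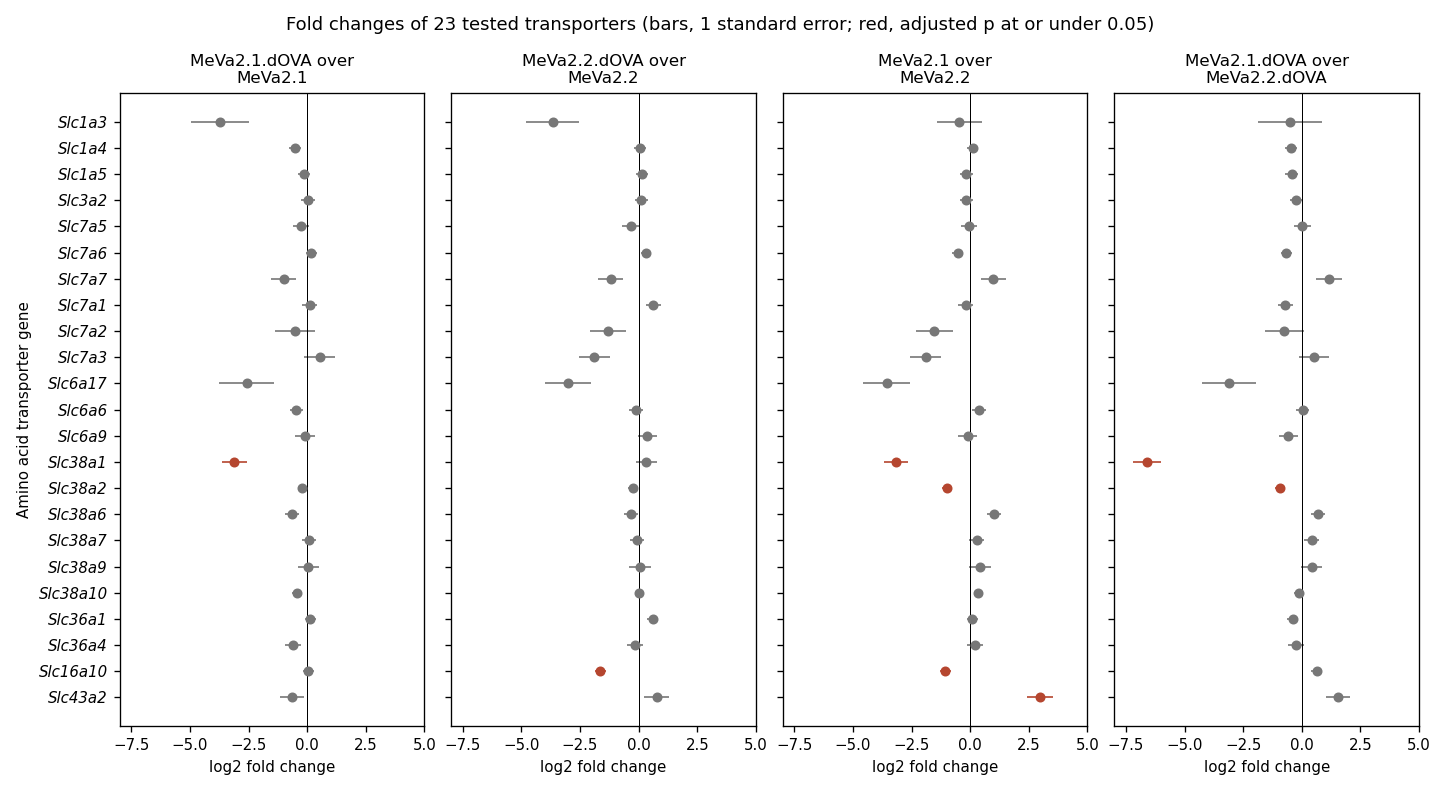
log2 fold changes (points) with 1 standard error (bars) of the 23 tested members other than Slc6a15, in order of role, for the 4 comparisons named above the panels; red marks an adjusted p at or under 0.05. Slc38a1 is red at -3.10, -3.17 and -6.60, Slc38a2 at -1.01 and -0.95, Slc16a10 at -1.63 and -1.06 and Slc43a2 at 2.97, while most other points lie near 0.

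RefSeq promoter windows (GRCm38.p6) were given for 23 of the 31 members, in 35 windows; Slc6a15, Slc38a1, Slc7a5, Slc1a5, Slc6a6, Slc7a2, Slc7a3 and Slc38a3 had none. The 250 bases before the start are shown for the 3 called members with a window and for Slc1a3, which was called with the replicate block. Slc38a6 and Slc7a6 were also called with the block and had windows, which are not shown. For Slc43a2 the first of its 2 windows is shown. Each reads 5′ to 3′ on the gene's strand, and capitals mark the GC box letters GGGCGG, the CCAAT box and the TATA box letters TATAAA on either strand.
Slc38a2 promoter (chr15:96699729-96699978, minus strand): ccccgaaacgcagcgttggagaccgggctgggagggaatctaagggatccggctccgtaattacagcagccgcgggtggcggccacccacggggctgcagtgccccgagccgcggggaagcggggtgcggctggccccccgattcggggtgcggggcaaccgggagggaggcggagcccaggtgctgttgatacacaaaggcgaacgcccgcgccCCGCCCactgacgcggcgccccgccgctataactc
Slc16a10 promoter (chr10:40142255-40142504, minus strand): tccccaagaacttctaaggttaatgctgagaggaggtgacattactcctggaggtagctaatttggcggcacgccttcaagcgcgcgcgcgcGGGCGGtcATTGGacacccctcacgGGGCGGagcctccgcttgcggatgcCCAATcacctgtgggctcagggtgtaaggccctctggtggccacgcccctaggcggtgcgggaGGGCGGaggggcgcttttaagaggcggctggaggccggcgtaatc
Slc43a2 promoter (chr11:75531444-75531693, plus strand): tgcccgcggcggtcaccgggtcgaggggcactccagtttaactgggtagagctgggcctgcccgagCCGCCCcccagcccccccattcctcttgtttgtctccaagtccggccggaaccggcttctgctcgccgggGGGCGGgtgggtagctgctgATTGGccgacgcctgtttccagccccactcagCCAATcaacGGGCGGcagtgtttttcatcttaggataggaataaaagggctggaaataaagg
Slc1a3 promoter (chr15:8710808-8711057, minus strand): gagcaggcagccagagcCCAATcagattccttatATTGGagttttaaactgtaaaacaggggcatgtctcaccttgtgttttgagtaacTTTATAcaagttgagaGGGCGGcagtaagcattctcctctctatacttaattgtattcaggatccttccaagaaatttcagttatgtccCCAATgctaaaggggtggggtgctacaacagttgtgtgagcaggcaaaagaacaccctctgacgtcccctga

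The printed windows of Slc38a2, Slc16a10 and Slc43a2 held 30, 21 and 17 CG pairs, against a median of 6 over all 32851 windows in the table. That of Slc1a3 held 2, and the second Slc43a2 window, not shown, held 32. These counts describe the chosen windows only. GGGCGG, the letters of a GC box, stood once in the Slc38a2 window, on the opposite strand 35 bases before the start, and 3 times each in those of Slc16a10 and Slc43a2. The GC box letters occurred in 60% of the 35 member windows and in 32.7% of all windows. CCAAT occurred in 28.6% of member windows and 33.8% of all, and TATAAA in 11.4% and 12.4%. TGATGNAA, letters of the element that the stress factor ATF4 binds with a partner, occurred in 5.71% of member windows, both of them Slc7a7, and in 3.45% of all. CACGTG occurred in 11.4% of member windows and 6.02% of all, and TGACGTCA in 2.86%, a single Slc38a6 window, and 1.55%. The marked matches do not overlap each other in the windows printed, and a match describes letters only.

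Slc6a15, a sodium-coupled carrier of branched-chain amino acids and proline known mainly from neurons, was nearly silent in the MeVa2.1 pair of lines and clearly present in the MeVa2.2 pair. The gene lies on chromosome 10 at 103367783 to 103419377 (GRCm38). It had 0, 0 and 0.0288 CPM in MeVa2.1.dOVA, against 0.432, 0.0521 and 0.168 CPM in MeVa2.1. In MeVa2.2.dOVA it had 28.5, 32.7 and 38.8 CPM, against 10.2, 12.85 and 10.2 CPM in MeVa2.2. Each MeVa2.2.dOVA library lay above each MeVa2.2 library. In the MeVa2.1 pair most values were at or under the floor, which is 3 counts or 0.172 to 0.185 CPM for the MeVa2.1.dOVA libraries with no read, so replicates 2 and 3 of MeVa2.1 cannot be told apart from MeVa2.1.dOVA at this depth.

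Counts behind these Slc6a15 levels were 1 read in all of MeVa2.1.dOVA and 15 in MeVa2.1, and 2447 reads in MeVa2.2.dOVA and 685 in MeVa2.2. Per sequenced gene count, MeVa2.1 was 14.0 times MeVa2.1.dOVA, and MeVa2.2.dOVA was 2356 times MeVa2.1.dOVA. Both ratios rest on the 1 read of MeVa2.1.dOVA, and 8 of the 15 reads of MeVa2.1 were in its replicate 1. In bulk libraries such as these, fewer cells that express a gene and less of its RNA per cell cannot be told apart. MeVa2.1 replicate 1, which held the highest of the MeVa2.1 values, was the library with 55.6 CPM of immune markers, and their part in this difference was not tested.

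Slc6a17, a carrier of neutral amino acids on synaptic vesicles, had its highest values in MeVa2.2. It had 0.185, 0.172 and 0.0863 CPM in MeVa2.1.dOVA, against 2.05, 0.417 and 0.168 CPM in MeVa2.1. Its MeVa2.2.dOVA libraries had 3.18, 0.533 and 0.208 CPM, against 14.1, 8.64 and 8.06 CPM in MeVa2.2. All 3 libraries of MeVa2.2 lay above all libraries of the other 3 lines, while MeVa2.1.dOVA and MeVa2.1 overlapped.

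The spread of Slc6a17 within MeVa2.1 and within MeVa2.2.dOVA was wide, with replicate 1 the highest of each. No comparison called it in the edgeR fit without the block: MeVa2.1 over MeVa2.2 had a log2 fold change of -3.56 (SE 0.997, adjusted p = 0.0734) and MeVa2.2.dOVA over MeVa2.2 had -3.02 (SE 0.97, adjusted p = 0.143). With the replicate block, it was lower in MeVa2.1 than in MeVa2.2 (-4.18, SE 0.59, adjusted p = 0.00204) and lower in MeVa2.1.dOVA than in MeVa2.2.dOVA (-2.57, SE 0.74, adjusted p = 0.0334). With no block, MeVa2.1 over MeVa2.2 was called without replicate 1 of MeVa2.1 (-5.15, adjusted p = 0.0378) and without replicate 1 or replicate 3 of MeVa2.2.dOVA (adjusted p = 0.0360 and 0.0379). The dOVA lines were called without replicate 3 of MeVa2.2.dOVA (-3.67, adjusted p = 0.0365), while without its replicate 1 the log2 fold change was -1.30 (adjusted p = 0.523). Replicate 1 also had the highest immune marker sum of each line, at 9.21 CPM in MeVa2.1.dOVA, 55.6 in MeVa2.1, 8.47 in MeVa2.2.dOVA and 17.8 in MeVa2.2, and the part of those markers in the Slc6a17 values was not tested.

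The other sodium- and chloride-coupled carriers were abundant in all lines and were called in no comparison. Slc6a6, which imports taurine, ranged from 254 to 640.0 CPM, and Slc6a9, a glycine transporter, from 69.6 to 307 CPM. Slc6a9 averaged 144 ± 74.7 CPM in MeVa2.1.dOVA and 152 ± 26.5 in MeVa2.1, and 221 ± 74.8 in MeVa2.2.dOVA and 166 ± 73.9 in MeVa2.2 (SD, n = 3 each). Its exons share 46 bases with B4galt2 on the opposite strand, which had 27.3 to 64.3 CPM, so a part of its counts is uncertain.

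**Figure D4:**
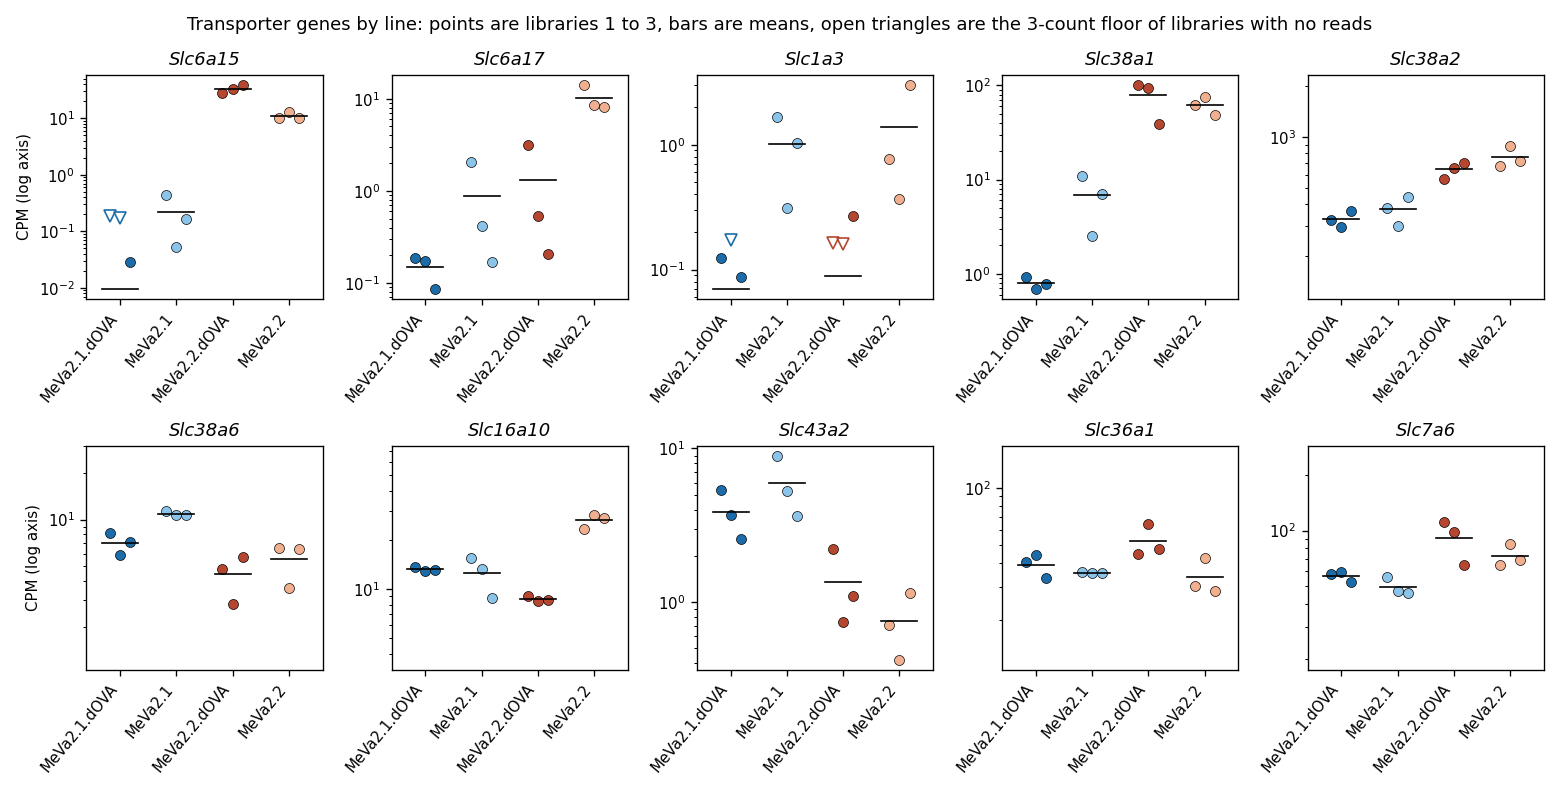
CPM (log axis) of 10 transporter genes in the 3 libraries of each line (points), with the line's mean (bar); open triangles stand at the floor of 3 counts in libraries with no reads. Slc6a15 and Slc38a1 lie far lower in MeVa2.1.dOVA and MeVa2.1 than in MeVa2.2.dOVA and MeVa2.2, and Slc16a10 lies between 23.3 and 28.5 CPM in MeVa2.2 and at or below 15.4 CPM elsewhere.

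Slc38a1, a sodium-coupled glutamine carrier of system A, had the largest fold change of the 23 tested members, between the dOVA lines, and fell in MeVa2.1.dOVA relative to MeVa2.1. It had 0.927, 0.689 and 0.777 CPM in MeVa2.1.dOVA, against 10.96, 2.499 and 7.07 CPM in MeVa2.1. The MeVa2.2.dOVA values were 101, 95.1 and 39.0 CPM, against 62.1, 74.8 and 48.4 CPM in MeVa2.2. Every MeVa2.1.dOVA library lay below every MeVa2.1 library, and both lines lay below all libraries of the MeVa2.2 pair, whose 2 lines overlapped.

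By edgeR's quasi-likelihood test, Slc38a1 fell by 3.10 on the log2 scale (SE 0.54, adjusted p = 0.0371) in MeVa2.1.dOVA relative to MeVa2.1. The adjusted p was 0.0150 with the replicate block. This call was lost in 9 of the 12 fits that left out 1 library, with adjusted p up to 0.212 without replicate 3 of MeVa2.1.dOVA. The log2 fold change stayed between -3.48 and -2.59. Over all genes, the share called in these 12 fits ran from 0.00697% to 0.58%, beside 0.486% with all libraries. Without replicate 3 of MeVa2.1.dOVA that share was 0.00698%. The Slc38a1 call was kept without replicate 2 or replicate 3 of MeVa2.2, or replicate 3 of MeVa2.2.dOVA (adjusted p = 0.0389, 0.0442 and 0.0236). Without replicate 2 of MeVa2.1.dOVA it was -3.02 (adjusted p = 0.173), and without replicate 1 of MeVa2.1, the library with the most immune markers, it was -2.59 (adjusted p = 0.140). Without replicate 3 of MeVa2.1, which resembled MeVa2.1.dOVA, it was -3.08 (adjusted p = 0.0643). The fit on those 2 lines alone gave an adjusted p of 0.0907. The direction was thus the same in each of these fits.

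Slc38a1 was also lower in MeVa2.1 than in MeVa2.2, with a log2 fold change of -3.17 (SE 0.50, adjusted p = 0.00434, edgeR), and in MeVa2.1.dOVA than in MeVa2.2.dOVA, with -6.60 (SE 0.60, adjusted p = 6.98e-05), which is 97.2 times lower. Both calls were kept in all 12 fits without 1 library. MeVa2.2.dOVA over MeVa2.2 had a log2 fold change of 0.33 (SE 0.45, adjusted p = 0.746). The 2 dOVA differences of Slc38a1 differed by -3.43 (SE 0.71) with an adjusted p of 0.101, which did not pass the threshold.

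Slc38a2, the system A carrier that cells induce when amino acids run short, was abundant in all lines and lower in MeVa2.1.dOVA and MeVa2.1 than in MeVa2.2.dOVA and MeVa2.2. It had 323, 293 and 366 CPM in MeVa2.1.dOVA, against 383, 298 and 443 CPM in MeVa2.1. Libraries of MeVa2.2.dOVA had 568, 659 and 705 CPM, against 670.1, 879 and 721 CPM in MeVa2.2. Each library of MeVa2.1.dOVA and MeVa2.1 lay below each library of MeVa2.2.dOVA and MeVa2.2, and within each pair the dOVA line overlapped the line it was compared with.

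The Slc38a2 difference was -1.01 on the log2 scale (SE 0.18, adjusted p = 0.00926, edgeR) in MeVa2.1 over MeVa2.2 and -0.95 (SE 0.18, adjusted p = 0.00681) in MeVa2.1.dOVA over MeVa2.2.dOVA. The first was lost without replicate 2 of MeVa2.1 (adjusted p = 0.0508) and in the fit on those 2 lines alone (0.0515), and the second was called in each fit that left out a library. Within the pairs, it was -0.20 (SE 0.18) in MeVa2.1.dOVA over MeVa2.1 and -0.26 (SE 0.18) in MeVa2.2.dOVA over MeVa2.2, both not called.

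Slc38a1, Slc38a2 and Slc38a4 lie in this order on the minus strand of chromosome 15, at 96571418 to 96642913, 96687392 to 96699730 and 96994820 to 97055956 (GRCm38). Slc38a4, a system A carrier best known from liver, had 1 count each in MeVa2.1.dOVA and MeVa2.1, against 25 in MeVa2.2.dOVA and 13 in MeVa2.2. The ratio of MeVa2.2.dOVA to MeVa2.1.dOVA was 24.1 (exact 95% counting interval 3.94 to 988) and that of MeVa2.2 to MeVa2.1 was 15.3 (2.30 to 652). Slc38a4 was too low to be tested, and 23 of its 25 MeVa2.2.dOVA counts were in replicate 3. With 1 count each in replicates 1 and 2 of MeVa2.2.dOVA and 0 in replicate 2 of MeVa2.2, its libraries overlapped between the pairs. Per kilobase, Slc38a1 was 0.125% ± 0.0195 of Slc38a2 in MeVa2.1.dOVA and 0.906% ± 0.525 in MeVa2.1, and 6.46% ± 3.26 in MeVa2.2.dOVA and 4.19% ± 0.673 in MeVa2.2 (SD, n = 3 each).

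Carriers of system N, which move glutamine and histidine, were almost without reads: Slc38a3 had 1 count in MeVa2.1.dOVA and 2 in MeVa2.1, and Slc38a5 had 1 count in all 12 libraries. The remaining members of the family act inside the cell or are less well described. Slc38a7, which exports glutamine and asparagine from lysosomes, ranged from 33.5 to 99.0 CPM, Slc38a9, the lysosomal arginine sensor of mTORC1, from 7.07 to 23.5 CPM, and Slc38a10 from 96.9 to 169 CPM. None of these 3 was called in any comparison.

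Slc38a6, an orphan member of the family, had 8.22, 5.86 and 7.17 CPM in MeVa2.1.dOVA, against 11.3, 10.8 and 10.7 CPM in MeVa2.1. In MeVa2.2.dOVA it had 4.80, 2.83 and 5.73 CPM, against 6.57, 3.58 and 6.43 CPM in MeVa2.2. MeVa2.1 lay above the libraries of all other lines. Each MeVa2.1.dOVA library lay above each MeVa2.2.dOVA library, beside 30.0% of all tested genes apart between the dOVA lines. Its log2 fold change in MeVa2.1 over MeVa2.2 was 1.001 (SE 0.30, adjusted p = 0.0914, edgeR), and with the replicate block it was higher by 1.05 (SE 0.24, adjusted p = 0.0221).

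Slc16a10, a uniporter of the aromatic amino acids, was highest in MeVa2.2 and was the 1 member called between MeVa2.2.dOVA and MeVa2.2. It had 13.7, 12.9 and 13.01 CPM in MeVa2.1.dOVA, against 15.4, 13.3 and 8.84 CPM in MeVa2.1. Its MeVa2.2.dOVA libraries had 9.01, 8.48 and 8.61 CPM, against 23.3, 28.5 and 27.3 CPM in MeVa2.2. The 3 MeVa2.2.dOVA values were close together and well below those of MeVa2.2, and MeVa2.1.dOVA overlapped MeVa2.1.

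Slc16a10 fell by 1.63 on the log2 scale (SE 0.24, adjusted p = 0.0108, edgeR) in MeVa2.2.dOVA relative to MeVa2.2, or 3.09-fold. The call was lost without replicate 2 of MeVa2.2.dOVA (adjusted p = 0.0657) and in the fit on those 2 lines alone (0.0768), and without the divergent replicate 2 of MeVa2.2 it stood at -1.56 (adjusted p = 0.0169). In MeVa2.1 over MeVa2.2 it was lower, at -1.06 (SE 0.23, adjusted p = 0.0262). That call was lost in 4 of 12 fits without 1 library. These left out replicate 2 or 3 of MeVa2.1 (adjusted p = 0.0759 and 0.0642) or replicate 2 or 3 of MeVa2.2 (0.0775 and 0.0611), with log2 fold changes between -1.13 and -0.84, and the fit on those 2 lines alone gave 0.102. The dOVA difference was 0.06 (SE 0.23) in the MeVa2.1 pair, and the difference between the pairs, 1.69 (SE 0.33), had an adjusted p of 0.0876 by edgeR and was not called, while DESeq2 called it (adjusted p = 0.000199). Some marker genes of melanocytes and fibroblasts also fell in MeVa2.2.dOVA relative to MeVa2.2, while others did not. Of 8 tested melanocyte markers, Ednrb was called, with 0, 0 and 0.0297 CPM in MeVa2.2.dOVA, against 2.78, 4.27 and 2.81 CPM in MeVa2.2 (log2 fold change -7.47, adjusted p = 0.00396, edgeR). Pax3, the most abundant melanocyte marker in both of these lines, went the other way without a call. It had 39.0, 39.1 and 37.3 CPM in MeVa2.2.dOVA, against 22.7, 25.5 and 21.6 CPM in MeVa2.2. The melanocyte sum was 48.2 to 55.7 CPM in MeVa2.2.dOVA and 40.3 to 88.0 CPM in MeVa2.2. Of 10 fibroblast markers, Thy1 (-6.49), Pdgfra (-2.61) and Dcn (-2.49) were called, or 30% beside 1.99% of all genes. The part of these markers in the Slc16a10 values was not tested.

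Slc43a2, a uniporter of large neutral amino acids, was higher in MeVa2.1 than in MeVa2.2. It had 5.38, 3.68 and 2.56 CPM in MeVa2.1.dOVA, against 8.96, 5.31 and 3.62 CPM in MeVa2.1. The MeVa2.2.dOVA values were 2.21, 0.747 and 1.10 CPM, against 0.710, 0.421 and 1.14 CPM in MeVa2.2. No library of the MeVa2.2 pair reached the lowest of the MeVa2.1 pair, and replicate 1 was the highest in 3 of the 4 lines.

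The log2 fold change of Slc43a2 in MeVa2.1 over MeVa2.2 was 2.97 (SE 0.55, adjusted p = 0.0105, edgeR), with an adjusted p of 0.0543 without replicate 1 of MeVa2.2. In MeVa2.1.dOVA over MeVa2.2.dOVA it was 1.55 (SE 0.52, adjusted p = 0.0805), and with the replicate block it was higher by 1.60 (SE 0.42, adjusted p = 0.0230). A gene on the opposite strand shares 922 bases of its exons but did not exceed 0.0761 CPM. Slc43a1, its close relative, had 2 and 8 counts in MeVa2.1.dOVA and MeVa2.1, and 4 and 3 in MeVa2.2.dOVA and MeVa2.2.

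Slc1a3, a glutamate and aspartate importer best known from glia, was low in all lines, with its lowest values in the dOVA lines. It had 0.124, 0 and 0.0863 CPM in MeVa2.1.dOVA, against 1.67, 0.312 and 1.04 CPM in MeVa2.1. Libraries of MeVa2.2.dOVA had 0, 0 and 0.267 CPM, against 0.769, 0.369 and 3.005 CPM in MeVa2.2. Both dOVA lines lay wholly below the lines whose names they extend. There were 5 counts in all of MeVa2.1.dOVA beside 74 for MeVa2.1, and 9 counts in MeVa2.2.dOVA and 99 in MeVa2.2. In these comparisons 21.0% and 17.3% of all tested genes were apart, in either direction.

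Without the block, the edgeR test called neither Slc1a3 difference, at -3.72 (SE 1.23, adjusted p = 0.281) in the MeVa2.1 pair and -3.67 (SE 1.14, adjusted p = 0.133) in the MeVa2.2 pair. That value rests on single libraries, with -2.35 (adjusted p = 0.477) without replicate 3 of MeVa2.2 and -7.94 (adjusted p = 0.0598) without replicate 3 of MeVa2.2.dOVA, which leaves that line with no counts. The MeVa2.2 pair was called with no filter (adjusted p = 0.0297) and by DESeq2 (0.0354). The replicate block gave -4.03 (SE 0.91, adjusted p = 0.0469) for MeVa2.1.dOVA over MeVa2.1. Fibroblast markers summed to 3023, 2195 and 4718 CPM in MeVa2.1.dOVA and 2695, 3580 and 4399 in MeVa2.1. In MeVa2.1, replicate 3 had the highest sum and replicate 1 the highest Slc1a3. Slc1a3 counts of 2, 0 and 3 in MeVa2.1.dOVA were too few to rank its libraries. The sums were 1622, 1690 and 6278 CPM in MeVa2.2.dOVA and 4503, 2886 and 6416 in MeVa2.2, where replicate 3 was highest in both lines and for both measures. Of the 10 markers, edgeR called 1 as lower in MeVa2.1.dOVA than MeVa2.1 (Dcn, -2.32), or 10% beside 0.486% of all genes. It called 3 as lower in MeVa2.2.dOVA than MeVa2.2 (Dcn, Pdgfra and Thy1), or 30% beside 1.99%. With the replicate block, 4 were lower in MeVa2.1.dOVA than MeVa2.1 (Thy1 -6.80, Fap -5.24, Postn -2.81 and Dcn -2.28), or 40% beside 2.6%. The part of these markers in the Slc1a3 values was not tested. The other glutamate importers were near absence, with Slc1a1 at 4 counts over all libraries and Slc1a2 at 14 counts in MeVa2.1.dOVA and 23 in MeVa2.1, with 7 counts in MeVa2.2.dOVA and 2 in MeVa2.2.

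The exchangers of small neutral amino acids were abundant and were called in no comparison. Slc1a5, the main plasma membrane glutamine exchanger, had 176, 206 and 247 CPM in MeVa2.1.dOVA, against 255, 247 and 183 CPM in MeVa2.1. In MeVa2.2.dOVA it had 287, 338 and 239 CPM, against 248, 348 and 179 CPM in MeVa2.2. The lines overlapped in every comparison. Slc1a4, which exchanges alanine, serine, cysteine and threonine, averaged 116 ± 48.4 CPM in MeVa2.1.dOVA and 163 ± 13.4 in MeVa2.1, and 164 ± 25.9 in MeVa2.2.dOVA and 153 ± 14.9 in MeVa2.2 (SD, n = 3 each). Its lowest value, 66.2 CPM, was in replicate 2 of MeVa2.1.dOVA.

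Slc7a5 and Slc3a2 form the heteromeric exchanger that brings in leucine and other large neutral amino acids, with Slc3a2 the shared heavy chain. Slc7a5 had 628, 309.9 and 989.6 CPM in MeVa2.1.dOVA, against 788, 540.1 and 956 CPM in MeVa2.1. Its MeVa2.2.dOVA libraries had 573, 633 and 724 CPM, against 1061, 716 and 632 CPM in MeVa2.2. Libraries of each line overlapped those of its counterparts, and the spread within MeVa2.1.dOVA exceeded 3-fold.

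Slc3a2 had 566, 436 and 652 CPM in MeVa2.1.dOVA, against 581, 433 and 587 CPM in MeVa2.1. The MeVa2.2.dOVA values were 741, 729.7 and 512 CPM, against 744, 703 and 359 CPM in MeVa2.2. Again the lines overlapped, and no comparison called either chain. Over the 4 comparisons, log2 fold changes of both chains lay between -0.34 and 0.12.

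**Figure D5:**
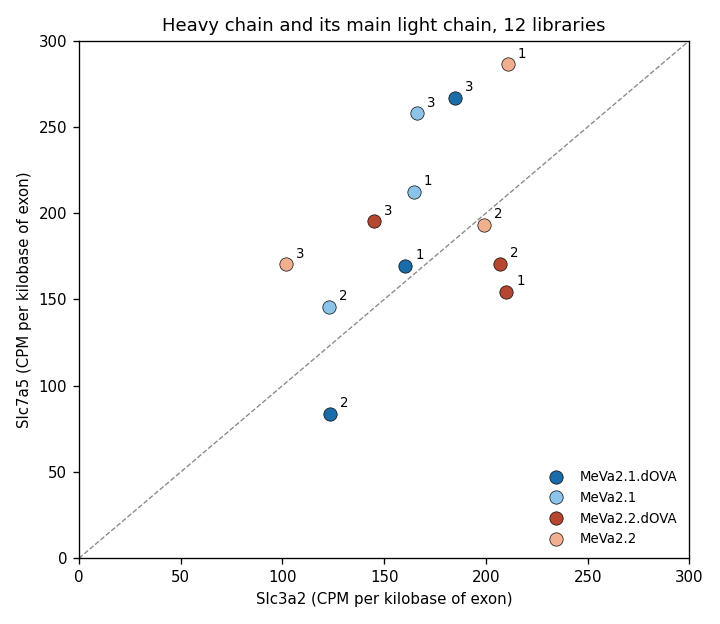
Slc7a5 against Slc3a2, both in CPM per kilobase of exon, for the 12 libraries (points coloured by line, numbered by replicate); the dashed line marks equal levels. The ratio of light to heavy chain runs from 0.676 in replicate 2 of MeVa2.1.dOVA to 1.67 in replicate 3 of MeVa2.2, and points of all lines mix.

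Per kilobase, Slc7a5 was 1.06 ± 0.384 times Slc3a2 in MeVa2.1.dOVA and 1.34 ± 0.188 times in MeVa2.1, and 0.969 ± 0.330 times in MeVa2.2.dOVA and 1.33 ± 0.353 times in MeVa2.2 (SD, n = 3 each). Slc7a5 with Slc7a6, Slc7a7 and Slc7a8 reached 0.785 to 1.83 times the heavy chain over the libraries. Slc7a6, a light chain that exchanges cationic for neutral amino acids, had 58.1, 59.6 and 52.5 CPM in MeVa2.1.dOVA, against 56.2, 46.9 and 45.5 CPM in MeVa2.1. Libraries of MeVa2.2.dOVA had 111, 97.9 and 64.9 CPM, against 64.6, 84.6 and 68.7 CPM in MeVa2.2. Each MeVa2.1 library lay below each MeVa2.2 library, and each MeVa2.1.dOVA library below each MeVa2.2.dOVA library. Of all tested genes, 23.5% and 30.0% were apart in these comparisons.

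The Slc7a6 log2 fold change in MeVa2.1.dOVA over MeVa2.2.dOVA was -0.66 (SE 0.22, adjusted p = 0.0821, edgeR), and with the replicate block it was lower, at -0.64 (SE 0.18, adjusted p = 0.0320). Without replicate 3 of MeVa2.2.dOVA and with no block it was called too (-0.88, adjusted p = 0.0102). Its relative Slc7a7 stayed at 0.267 to 3.13 CPM, and its counts are uncertain, because 232 bases of its exons lie opposite Oxa1l, which had 39.6 to 68.8 CPM, and the strand setting of the counting is not given in the sources used here. Slc7a8, a second light chain for neutral amino acids, had 0 counts in MeVa2.1.dOVA and 4 in MeVa2.1, and 1 in MeVa2.2.dOVA and 3 in MeVa2.2.

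The cationic carriers import arginine and lysine. Slc7a1, the main one, ranged from 353 to 428 CPM in MeVa2.1.dOVA and MeVa2.1 together, against 431 to 862 CPM in MeVa2.2.dOVA and 243 to 591 CPM in MeVa2.2. Each MeVa2.2.dOVA library lay above each MeVa2.1.dOVA library, but the log2 fold change of -0.70 (SE 0.32) in MeVa2.1.dOVA over MeVa2.2.dOVA had an adjusted p of 0.189. Between the dOVA lines, 30.0% of all tested genes were apart, in either direction. Slc7a3, another arginine carrier, averaged 2.44 ± 2.37 CPM in MeVa2.1.dOVA and 1.68 ± 0.286 in MeVa2.1, and 1.74 ± 0.389 in MeVa2.2.dOVA and 6.32 ± 3.65 in MeVa2.2 (SD, n = 3 each). Its log2 fold change in MeVa2.1 over MeVa2.2 was -1.90 (SE 0.66, adjusted p = 0.146, edgeR). Slc7a2, an inducible arginine carrier, did not exceed 1.95 CPM.

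Proton-coupled carriers of the SLC36 family move small amino acids, in part out of lysosomes. Slc36a1 had 40.3, 44.0 and 33.5 CPM in MeVa2.1.dOVA, against 35.7, 35.6 and 35.2 CPM in MeVa2.1. In MeVa2.2.dOVA it had 44.6, 64.2 and 47.5 CPM, against 30.1, 42.8 and 28.3 CPM in MeVa2.2. The MeVa2.2.dOVA libraries lay above those of MeVa2.2 and of MeVa2.1.dOVA, but the log2 fold change of 0.61 (SE 0.23) over MeVa2.2 had an adjusted p of 0.216 by edgeR. Such separation, in either direction, held for 17.3% and 30.0% of all tested genes in these comparisons. Slc36a4, which takes up proline and tryptophan, ranged from 13.04 to 42.8 CPM and was called in no comparison.

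Other genes that carry, sense or use amino acids were counted from lists. Before adjustment, the edgeR p was under 0.05 for 11.2% of all genes in MeVa2.1.dOVA against MeVa2.1. The share was 16.4% in MeVa2.2.dOVA against MeVa2.2 and 17.6% in MeVa2.1 against MeVa2.2. DESeq2 called 2.82%, 6.96% and 8.63% of all genes in these 3 comparisons. Of 38 further transporters, 14 were tested. Between the dOVA lines 2 of these were called, or 14.3%, beside 11.3% of all genes, and 3 with the replicate block, or 21.4%, beside 22%. Slc25a13, a mitochondrial aspartate and glutamate carrier, was the 1 called in MeVa2.1.dOVA against MeVa2.1, where it had 2.596, 0.976 and 2.04 CPM, against 10.2, 8.12 and 8.81 CPM (log2 fold change -2.28, SE 0.43, adjusted p = 0.0485, edgeR). It was lower in MeVa2.1.dOVA than in MeVa2.2.dOVA too (-3.16, SE 0.44), as was Slc7a11 (-2.68, SE 0.53, adjusted p = 0.00765), the cystine light chain that also pairs with Slc3a2. Slc7a11 had 85.8, 89.9 and 79.9 CPM in MeVa2.1.dOVA, against 617, 825 and 202 CPM in MeVa2.2.dOVA. Per kilobase it was 0.0406 ± 0.0108 times Slc3a2 in MeVa2.1.dOVA and 0.199 ± 0.0937 times in MeVa2.2.dOVA (SD, n = 3 each). In the other 2 comparisons edgeR called 0 of the 14, with 3 at an unadjusted p under 0.05 in MeVa2.2.dOVA against MeVa2.2 and 1 in MeVa2.1 against MeVa2.2, and DESeq2 called 1 and 0.

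Of 30 tested genes of amino acid sensing upstream of mTORC1, edgeR called 2 in MeVa2.1 against MeVa2.2 and 4 in MeVa2.1.dOVA against MeVa2.2.dOVA. These shares of 6.67% and 13.3% are near the 4.48% and 11.3% of all genes, and the replicate block called 9 between the dOVA lines (6 higher and 3 lower, or 30% beside 22% of all genes). Without the block it called 0 in MeVa2.1.dOVA against MeVa2.1 and 0 in MeVa2.2.dOVA against MeVa2.2, where 2 and 6 had an unadjusted p under 0.05 and DESeq2 called 0 and 2. Castor1, a cytosolic arginine sensor, was higher in MeVa2.1 than in MeVa2.2 (15.6 to 19.6 against 6.48 to 8.82 CPM, log2 fold change 1.12, SE 0.25, adjusted p = 0.0298). It was also higher in MeVa2.1.dOVA than in MeVa2.2.dOVA (9.90 to 13.8 against 4.21 to 7.10 CPM, 1.08, SE 0.25, adjusted p = 0.0191). Nprl2 (0.81, SE 0.20) and Lamtor4 (0.79, SE 0.22) were higher in the dOVA comparison as well. Rragb, a Rag GTPase on the X chromosome, had 0 counts in MeVa2.1.dOVA, against 501 in MeVa2.2.dOVA. It had 1 count in MeVa2.1, against 153 in MeVa2.2, a ratio of 181 for MeVa2.2 to MeVa2.1 (exact 95% counting interval 31.9 to 7175).

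Of 33 tested targets of ATF4, the factor that induces transporters when amino acids run short, edgeR called 3 between the dOVA lines, a share of 9.09%, below the 11.3% of all genes, and the replicate block called 4, or 12.1%, beside 22%. With no block it called 0 in MeVa2.1.dOVA against MeVa2.1, MeVa2.2.dOVA against MeVa2.2 and MeVa2.1 against MeVa2.2, where 2, 3 and 1 had an unadjusted p under 0.05 and DESeq2 called 0, 1 and 0. Ddit4 (-1.39, SE 0.28, adjusted p = 0.00929) and Sesn2 (-1.27, SE 0.28, adjusted p = 0.0151), both inhibitors of mTORC1, were lower in MeVa2.1.dOVA than in MeVa2.2.dOVA, and Mars, the methionine transfer RNA synthetase, was higher (0.73, SE 0.21, adjusted p = 0.0441). Of 12 genes of glutamine and glutamate metabolism, Glud1, glutamate dehydrogenase, was the 1 called. It was called in MeVa2.2.dOVA against MeVa2.2, or 8.33% beside 1.99% of all genes, and between the dOVA lines, or 8.33% beside 11.3%. There the replicate block called 4 (2 higher and 2 lower), or 33.3% beside 22%. In MeVa2.1.dOVA against MeVa2.1 and MeVa2.1 against MeVa2.2 edgeR called 0, with 0 and 1 at an unadjusted p under 0.05 and 0 and 1 called by DESeq2. Glud1 was lower in MeVa2.2.dOVA (262 ± 52.3 CPM) than in MeVa2.2 (422 ± 12.4 CPM; SD, n = 3 each; log2 fold change -0.72, SE 0.16, adjusted p = 0.0453) and higher in MeVa2.1.dOVA than in MeVa2.2.dOVA (0.77, SE 0.16, adjusted p = 0.00985). Interferon-stimulated genes also differed between the dOVA lines, with 17 of 20 called lower in MeVa2.1.dOVA, or 85% beside 11.3% of all genes. Their sum was 146 to 464 CPM in MeVa2.1.dOVA, against 912 to 3420 CPM in MeVa2.2.dOVA. Their part in the transporter differences was not tested.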

How the data were processed

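RNA from the 12 libraries was extracted with a column kit and made into stranded mRNA libraries, per the labels' protocols. The deposited files hold raw counts per Ensembl gene made by the authors. The tools named in the submitters' processing notes are HTSeq 0.10.0, STAR 2.6.0c and DESeq2 1.30.1, with GRCm38 as the build. How each was set, strand included, is not given in the sources used here. Of 55471 gene IDs, 55144 had a symbol in the reference table. The 5 tally lines for reads assigned to no gene, 35.8% to 40.0% of a library's total, stayed out of library sizes and tests.

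CPM was computed over all gene counts, and exon length from the union of GENCODE exons of GRCm38. Genes were filtered with filterByExpr and tested with edgeR 4.0.16 (TMM scaling, quasi-likelihood F test, 1 mean per line over all libraries, R 4.3.3), with Benjamini-Hochberg adjustment over 13985 genes and a threshold of 0.05. The standard error is the log2 fold change divided by the square root of F. Residual degrees of freedom were 8. Counting intervals are exact at 95%, are taken over the summed counts of each line and cover counting error only. A floor is 3 counts, which was 0.0842 to 0.185 CPM in a library.

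The correlations of deviations between same-numbered libraries were 0.503, 0.488 and 0.534 in MeVa2.1.dOVA against MeVa2.1, 0.429, 0.405 and 0.328 in MeVa2.1 against MeVa2.2, and 0.105, 0.516 and 0.416 in MeVa2.1.dOVA against MeVa2.2.dOVA. All exceed 0.1, so the numbers were taken to pair those libraries. The limit was a choice and the correlations come from these same data. Replicate 1 between the dOVA lines passed narrowly, at 0.105, so the block calls there depend on that choice. The block was fitted over all 12 libraries, including the MeVa2.2 pair. They were 0.0815, 0.640 and 0.521 in MeVa2.2.dOVA against MeVa2.2, which was not treated as paired. The labels give no origin for the pairing.

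Alternatives were no filter, a mean CPM of at least 1, RLE scaling, library totals, DESeq2 1.42.0, only the compared lines, the replicate block, and leaving out each library. All 31 members are described. Values in every library are given for Slc6a15, for members called in any of 5 contrasts with or without the replicate block, and for the 4 with the highest level per kilobase. From each other list, at most 4 called genes with the largest change are named. The members and lists were chosen with earlier results of these data known.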

Additional observations from a re-analysis of the deposited data

Results flagged for a closer look

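For Slc6a15, the sign of the difference between a dOVA line and its counterpart was not the same in the 2 pairs of lines. Values were 0 to 0.0288 CPM in MeVa2.1.dOVA and 0.0521 to 0.432 CPM in MeVa2.1, and 28.5 to 38.8 CPM in MeVa2.2.dOVA and 10.2 to 12.85 CPM in MeVa2.2. The fitted difference between the 2 dOVA differences was -5.01 on the log2 scale, and rests on 1 count in MeVa2.1.dOVA and 15 counts in MeVa2.1. At this depth replicates 2 and 3 of MeVa2.1 cannot be told apart from MeVa2.1.dOVA, where a library with no read allows up to 0.172 to 0.185 CPM. Because the gene was chosen with these levels known, the difference is counted here as not tested, although the fits over all genes include it.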

How the results depend on the processing

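The number of members called depended on the fit. Slc6a15 is part of the counts below wherever a fit called it, and nothing is read from it. In MeVa2.1.dOVA against MeVa2.1, 1 member was called, and 2 with no filter, 0 with only the compared lines, 2 with the replicate block and 0 to 1 when 1 library was left out. In MeVa2.2.dOVA against MeVa2.2, 1 was called, and 4 with no filter, 4 by DESeq2, 0 with only the compared lines and 0 (without replicate 2 of MeVa2.2.dOVA) to 2 (without replicate 1 of MeVa2.1) without 1 library. The replicate block gave 5 there, although that comparison was not treated as paired. In MeVa2.1 against MeVa2.2, 5 were called, and 8 by DESeq2, 3 with only the compared lines, 7 with the replicate block and 3 (without replicate 2 of MeVa2.1) to 6 without 1 library. In MeVa2.1.dOVA against MeVa2.2.dOVA, 3 were called, and 6 by DESeq2, 6 with the replicate block and 3 to 5 (without replicate 3 of MeVa2.2.dOVA) without 1 library. The difference between the dOVA differences had 0 calls, and 2 with no filter and 3 by DESeq2, or 1 and 2 without Slc6a15. With the replicate block it had 1 call (Slc16a10, 1.71, adjusted p = 0.0350, edgeR), although it includes the MeVa2.2 pair, which was not treated as paired. It stayed at 0 without 1 library, and only the compared lines could not be fitted there. Shares over all genes moved with these settings. DESeq2 called 6.96%, 8.63%, 17.4% and 1.94% of all genes in the last 4 of these comparisons, beside 1.99%, 4.48%, 11.3% and 0.0858% in the fit reported. Only the compared lines gave 0.19%, 0.038% and 2.96% of all genes in the first 3. No filter gave 0.966% and 2.59% in the first 2 and 0.572% for the difference between the pairs. The block gave 7.75% in MeVa2.2.dOVA against MeVa2.2 and 0.844% for the difference between the pairs. Without 1 library, the shares over all genes ran from 0.00697% to 0.58% in the first comparison and from 0.139% to 3.12% in the second. They ran from 1.95% to 5.42% in the third, from 5.54% to 18% in the fourth and from 0% to 0.0905% for the difference between the pairs. RLE scaling, library totals and a mean CPM of at least 1 gave the same counts. Only the compared lines leaves fewer libraries to estimate the spread; the other causes were not tested.

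Over 2134 fold changes of single members under alternatives, 0 reversed a called direction, 20 lost a call and 31 gained one. TMM scaling moved levels by -6.37% to 3.001%. Depth limits the 7 untested members, where a library with no read allows up to 0.0842 to 0.185 CPM.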
